A study of Rattus norvegicus with 24 samples.

Results

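The genes described here are the striatal dopamine receptor genes Drd1, Drd2 and Drd3, the adenosine A2a receptor gene Adora2a, and Ppp1r1b, which encodes the dopamine- and cAMP-regulated phosphoprotein DARPP-32. They were taken from the table by their Ensembl IDs (ENSRNOG00000023688, ENSRNOG00000008428, ENSRNOG00000060806, ENSRNOG00000001302 and ENSRNOG00000028404), and all 5 of the 5 were among the 17323 genes in the table and among the 16289 genes that passed the filter on low counts. Messenger RNA was sequenced from nucleus accumbens core (NAc core), nucleus accumbens shell (NAc shell) and ventral tegmental area (VTA) of 8 male F1 rats, which gave 24 libraries of hand-dissected tissue, 1 per rat and region. All rats were F1 offspring of the inbred lines F344 and BN, and all were given nicotine at 30 µg/kg per intravenous infusion, 10 infusions per session over 6 sessions, before tissue was taken on day 15. In cross A (rats 1, 2, 11 and 15) the sire was F344 and the dam BN, and in cross B (rats 3, 4, 13 and 16) the sire was BN and the dam F344. By their labels, rats 1, 2, 3 and 4 had received nicotine injections at 0.4 mg/kg on days 1 to 4, and rats 11, 13, 15 and 16 saline, although the study's methods name these injections for another experiment. No library came from a rat without nicotine infusions, so the injection contrast compares earlier nicotine with earlier saline in rats that all took nicotine later.

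Dopamine receptors are G protein-coupled receptors that fall into a D1-like class, which stimulates adenylyl cyclase, and a D2-like class, which inhibits it. In the striatum, most projection neurons are medium spiny neurons: those of the direct pathway carry the D1 receptor, and those of the indirect pathway carry the D2 receptor together with the adenosine A2a receptor, which stimulates the same cyclase. DARPP-32 is made in both kinds of neuron and, once phosphorylated by protein kinase A, inhibits protein phosphatase 1. In the midbrain, dopamine neurons carry the D2 receptor on their own cell bodies and terminals, where it acts as an autoreceptor. The D3 receptor, the other D2-like receptor described here, is known for its restricted expression in the ventral striatum and the islands of Calleja.

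Promoter sequences of Drd2 and Drd3 are given because these genes encode receptors of the same class and, as described below, had log2 fold changes of opposite sign between the NAc core and the NAc shell, although the Drd3 call was made in only 9 of 19 alternatives. They are the 250 bases before the start of each gene in RefSeq (rat build GRCr8, not the build on which the reads were counted), at chr8:58605153-58605402 on the plus strand for Drd2 and at chr11:70437794-70438043 on the minus strand for Drd3, each written 5′ to 3′ in the direction of the gene. Capitals mark the GC box GGGCGG on either strand.
Drd2: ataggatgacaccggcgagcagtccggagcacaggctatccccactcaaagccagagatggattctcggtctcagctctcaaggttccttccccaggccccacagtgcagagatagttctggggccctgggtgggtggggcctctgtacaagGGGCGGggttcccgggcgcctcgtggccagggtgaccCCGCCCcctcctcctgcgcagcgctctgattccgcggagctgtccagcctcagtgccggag
Drd3: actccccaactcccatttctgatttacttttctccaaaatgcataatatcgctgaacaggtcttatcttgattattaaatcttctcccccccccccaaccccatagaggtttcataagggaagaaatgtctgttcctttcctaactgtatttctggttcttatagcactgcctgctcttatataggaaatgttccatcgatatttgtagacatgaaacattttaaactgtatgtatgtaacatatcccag
The Drd2 stretch held 2 GC boxes, which began 98 and 61 bases before the start, and was 66.0% G and C. The Drd3 stretch held none and was 38.0% G and C. Of the 33469 RefSeq promoters of this length, 30.5% held a GC box, and the median G and C content was 51.2%. Neither stretch held the TATA box (TATAAA), the CAAT box (CCAAT) or the cAMP response element (TGACGTCA) on either strand, which 12.9%, 34.0% and 1.59% of the promoters held. A match is a description of the letters and not evidence of a binding site.

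Levels are given as CPM, the count of a gene scaled to a common library total, with library totals adjusted by the trimmed mean of M-values (TMM) over the 24 libraries. Library totals ranged from 17563458 to 24405856 counts. Because transcript lengths were not used, levels were compared for a gene across libraries, and of ratios between genes only the change between regions was read. In bulk tissue, fewer cells of a type and less RNA per cell cannot be told apart. The labelled regions carried their markers: the summed level of 11 medium spiny neuron markers was 2816 to 4793 CPM in the NAc core, 2133 to 3275 in the NAc shell and 391.5 to 584.9 in the VTA. The 584.9 CPM was the VTA library of rat 2, and the other VTA libraries reached at most 497.2. The VTA library of rat 2 (cross A, nicotine-injected) stood apart from the others in its neuron markers. Its dopamine transporter gene Slc6a3 was at 20.9 CPM, against 702.5 to 1312 in the other 7 VTA libraries, and the summed level of 8 midbrain dopamine neuron markers was 79.0 CPM against 1141 to 2078. In the same library the summed level of 2 glutamatergic neuron markers was 1265 CPM against 295 to 446, and that of 5 astrocyte markers 2065 against 3415 to 4643. Not every marker followed its sum there. Nr4a2, a dopamine neuron marker, was at 29.0 CPM against 18.4 to 37.2. The astrocyte markers Slc1a2 (18.6 against 11.4 to 25.8) and Slc1a3 (558.6 against 446.9 to 562.8) also lay within the range of the others. The choroid plexus gene Ttr reached 15170 CPM in the VTA library of rat 1 and 2626 in that of rat 2, and was at most 3.25 in the other VTA libraries. For the 5 genes, results that rest on the VTA library of rat 2 are given with and without it. For other genes, differences between the NAc and the VTA include that library.

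**Figure D1:**
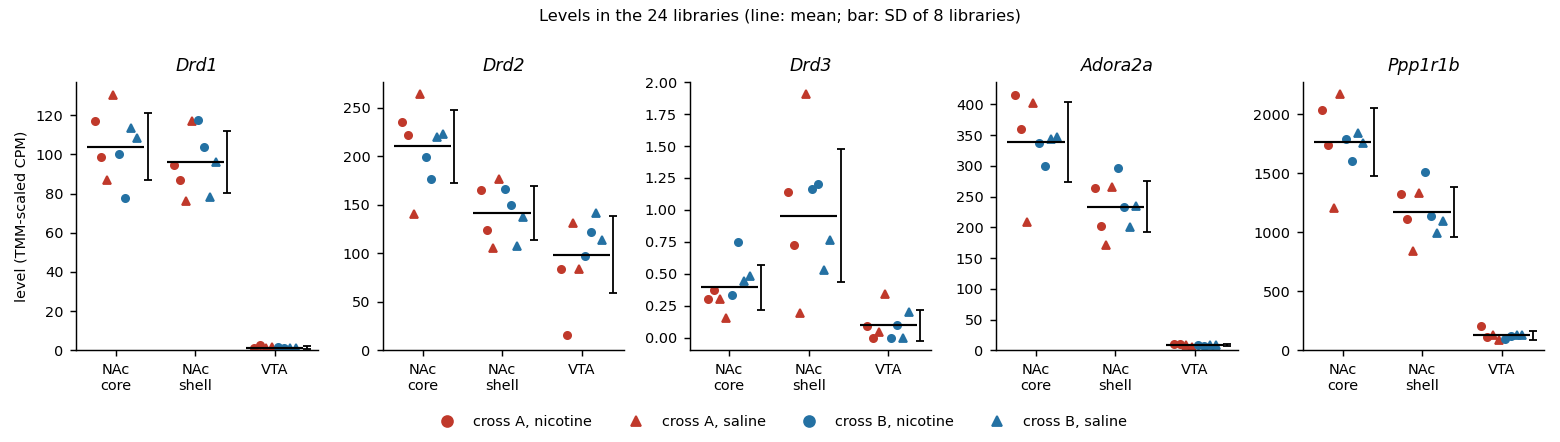
Level of each gene (TMM-scaled CPM, linear axis with a scale of its own per gene) in the 8 libraries of each region, with colour for the cross, shape for the injection, a line for the mean and a bar for the SD. Drd1, Adora2a and Ppp1r1b separated both NAc regions from the VTA without overlap, whereas Drd2 in the VTA reached 141.5 CPM and had a single low library at 16.2.

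Drd1, the D1 receptor of direct-pathway neurons, was a gene of the NAc and hardly present in the VTA. Its level had a lowest value, a median and a highest value of 77.6, 104.2 and 130.4 CPM in the NAc core, 76.3, 95.3 and 117.3 in the NAc shell, and 0.934, 1.24 and 2.50 in the VTA. The VTA libraries held only 19 to 45 Drd1 counts each, so single VTA values carry a counting error of their own, and the highest of them was the library of rat 2. Drd1 was 75.2-fold higher in the NAc core than in the VTA (log2 fold change 6.23 ± 0.18 SE, edgeR adjusted p = 5.65e-14) and 68.9-fold higher in the NAc shell than in the VTA (6.11 ± 0.18, adjusted p = 1.34e-13), in 8 of 8 rats. Between core and shell, the levels overlapped and the test did not call a difference: the log2 fold change was 0.11 ± 0.10, with a 95% interval of -0.11 to 0.32 (adjusted p = 0.564), and 6 of 8 rats had the higher level in the core.

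Adora2a, the A2a receptor of indirect-pathway neurons, likewise separated the NAc from the VTA, but it also differed within the NAc. Its lowest, median and highest levels were 208.1, 345.3 and 415.9 CPM in the NAc core, 172.1, 234.0 and 297.3 in the NAc shell, and 6.04, 8.69 and 10.1 in the VTA. The VTA levels lay within a narrow range and rested on 143 to 227 counts per library. Adora2a was 40.3-fold higher in the NAc core than in the VTA (log2 fold change 5.33 ± 0.14, adjusted p = 2.25e-14) and 27.5-fold higher in the NAc shell than in the VTA (4.78 ± 0.13, adjusted p = 8.55e-14). It was 1.45-fold higher in the core than in the shell (95% interval 1.22 to 1.72, log2 fold change 0.53 ± 0.12, adjusted p = 0.00411), with the core above the shell in 8 of 8 rats although the libraries of the regions overlapped. The lowest core library was that of rat 11 at 208.1 CPM, and without that rat the difference was 0.56 ± 0.09 on the log2 scale. The call was made in 17 of 19 alternatives and lost in the rats of cross A alone (0.61 ± 0.20, adjusted p = 0.122) and in the saline-injected rats alone (0.57 ± 0.18, adjusted p = 0.139).

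Ppp1r1b followed the order of Adora2a, with the NAc core above the NAc shell and both far above the VTA. Its lowest, median and highest levels were 1202, 1775 and 2167 CPM in the NAc core, 844, 1125 and 1509 in the NAc shell, and 87.2, 125.3 and 207.6 in the VTA. Unlike Drd1 it was well detected in the VTA, with 1888 to 4669 counts per library. It was 14.1-fold higher in the NAc core than in the VTA (log2 fold change 3.82 ± 0.17, adjusted p = 8.80e-12), 9.24-fold higher in the NAc shell than in the VTA (3.21 ± 0.17, adjusted p = 1.23e-10) and 1.51-fold higher in the core than in the shell (95% interval 1.28 to 1.77, 0.59 ± 0.11, adjusted p = 0.000893). Each of these 3 differences had the same direction in 8 of 8 rats. The call between core and shell was made in 18 of 19 alternatives and lost in the rats of cross A alone (adjusted p = 0.0787). The highest VTA level, 207.6 CPM, was in the library of rat 1, the library in which the choroid plexus gene Ttr was at 15170 CPM; the part of choroid plexus in that value was not tested.

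Drd2 encodes the D2 receptor of both indirect-pathway neurons and midbrain dopamine neurons. Its lowest, median and highest levels were 140.5, 221.1 and 264.0 CPM in the NAc core, 105.0, 143.7 and 177.0 in the NAc shell, and 16.2, 105.8 and 141.5 in the VTA. The 16.2 CPM belonged to the VTA library of rat 2, in which Slc6a3 was also low; the other 7 VTA libraries held 83.5 to 141.5 CPM and overlapped with the shell. Drd2 was 1.48-fold higher in the core than in the shell (95% interval 1.24 to 1.76, log2 fold change 0.56 ± 0.12, adjusted p = 0.00276), in 8 of 8 rats. This call was made in 16 of 19 alternatives. It was lost in 1 fit over all 24 libraries (0.57 ± 0.24, adjusted p = 0.165), in the rats of cross A alone (0.58 ± 0.20, adjusted p = 0.128) and in the saline-injected rats alone (0.68 ± 0.19, adjusted p = 0.0975). Drd2 was 2.15-fold higher in the core than in the VTA (1.10 ± 0.28, adjusted p = 0.00215), and without the VTA library of rat 2 the log2 fold change was 0.94 ± 0.14 (adjusted p = 9.58e-06). Between the shell and the VTA the difference was not called over all libraries (0.52 ± 0.28, 95% interval -0.06 to 1.10, adjusted p = 0.112), with the shell above the VTA in 6 of 8 rats. Without the VTA library of rat 2 the shell was higher by 0.34 ± 0.14 on the log2 scale and the difference was called (adjusted p = 0.0400), a call that was not made when the rat was also entered as a block (0.37 ± 0.18, adjusted p = 0.0958).

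Drd3, the D3 receptor, was near the limit of detection in all regions and, unlike Drd2, was lower in the NAc core than in the NAc shell. Counts per library were 3 to 15 in the core, 4 to 38 in the shell and 0 to 8 in the VTA, where the libraries of rats 2, 3 and 13 had none; a count of 0 allowed up to 0.142 to 0.168 CPM there, before TMM scaling. In the core only the library of rat 4 held over 10 counts, and in the VTA none did. Drd3 thus passed the filter on low counts through its shell libraries, so its differences from the shell are not independent of that filter. Its lowest, median and highest levels were 0.152, 0.355 and 0.747 CPM in the core, 0.189, 0.952 and 1.91 in the shell, and 0, 0.065 and 0.338 in the VTA. The shell values ran from that of rat 11 to that of rat 15 and overlapped with the core, and the shell was above the core in 7 of 8 rats. Drd3 was 2.40-fold higher in the shell than in the core (log2 fold change of core against shell -1.26 ± 0.39, adjusted p = 0.0310), but with the rat as a block the difference was not called (-1.15 ± 0.41, adjusted p = 0.0768), nor was it without rat 1, 2, 3 or 15, the smallest of these being -0.92 (adjusted p = 0.12) without rat 15. It was 3.86-fold higher in the core than in the VTA (1.95 ± 0.59, adjusted p = 0.00857), in 7 of 8 rats. In rat 15, the exception, it was at 0.152 CPM in the core and 0.338 in the VTA, the latter from 8 counts, and without that rat the log2 difference was 2.69 ± 0.59 (adjusted p = 0.00104). The call was lost in the rats of cross A alone (1.19, adjusted p = 0.312) and in the saline-injected rats alone (1.23, adjusted p = 0.235). Drd3 was 9.20-fold higher in the shell than in the VTA (3.20 ± 0.60, adjusted p = 0.000197).

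**Figure D2:**
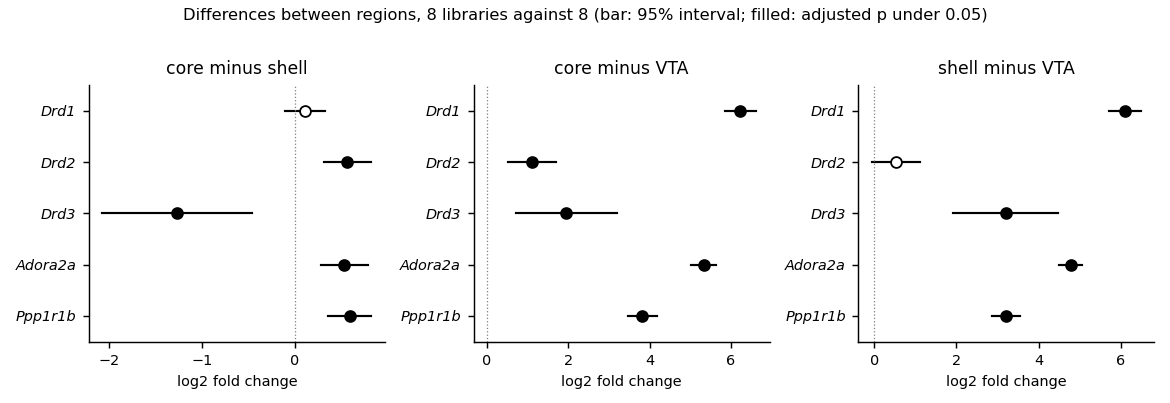
Log2 fold change of each gene between regions (8 libraries against 8), with the 95% interval as a bar and a filled point where the adjusted p was under 0.05. Drd1 was near 0 between core and shell, Drd2, Adora2a and Ppp1r1b lay together between 0.53 and 0.59, and Drd3 lay on the other side of 0 with a wide interval.

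Over all genes tested, 15.1% were called between NAc core and NAc shell, 61.8% between NAc core and VTA and 59.8% between NAc shell and VTA. Of the 5 genes described, 4, 5 and 4 were called. A call between the NAc and the VTA was thus common among all genes. Counted from the highest log2 fold change of core against VTA, Drd1 ranked 13, Adora2a 22, Ppp1r1b 73, Drd3 420 and Drd2 1117 among the 16289 genes tested. The libraries of NAc core and VTA did not overlap for 24.5% of all genes tested, and did not for 3 of the 5 members (Drd1, Adora2a and Ppp1r1b). The same 3 did not overlap between NAc shell and VTA, with 24.3% of all genes tested. None of the 5 separated core from shell without overlap, which 3.27% of all genes did. With the preparation batch as a term, all of these calls held, Drd2 between core and VTA at 0.95 ± 0.30 (adjusted p = 0.0131).

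The levels of members were also set against each other within a library, which cancels differences in overall scale between libraries. Within a library, the ratio of Drd1 to Drd2 levels was 0.50 ± 0.055 (SD, n = 8) in the NAc core and 0.686 ± 0.051 in the NAc shell, and it was higher in the shell in 8 of 8 rats. The ratio of Drd1 to Adora2a, the other indirect-pathway receptor, was 0.312 ± 0.049 in the core and 0.414 ± 0.031 in the shell, again higher in the shell in 8 of 8 rats. The ratio of Drd2 to Adora2a was 0.622 ± 0.038 in the core and 0.605 ± 0.043 in the shell, with overlapping values, and was higher in the shell in 3 of 8 rats. In the VTA this ratio was 8.28 to 17.3 in 7 libraries and 1.68 in that of rat 2. The ratio of Ppp1r1b to Adora2a was 5.24 ± 0.31 in the core, 5.00 ± 0.24 in the shell and 14.8 ± 2.9 in the VTA, where 8 of 8 rats had a higher ratio than in the core. The ratios share their libraries and use no gene length, so only their change between regions can be read. They were not tested.

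**Figure D3:**
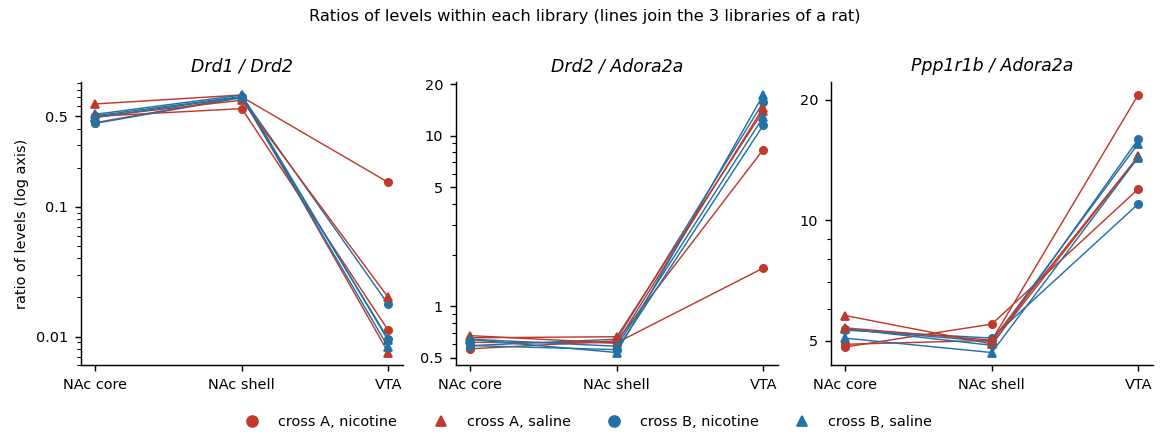
Ratio of the levels of Drd1 to Drd2, Drd2 to Adora2a and Ppp1r1b to Adora2a within each library (log axis), with lines joining the 3 libraries of a rat. The lines rise from core to shell for Drd1 to Drd2, run flat for Drd2 to Adora2a, and spread in the VTA, where the library of rat 2 stands apart at 0.154 and 1.68.

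The levels of pairs of these genes were also related to each other across the 8 rats of each region. Among Drd1, Drd2, Adora2a and Ppp1r1b every r was positive in both NAc regions, and the adjusted permutation p of r was below 0.05 for each pair there except Drd1 and Adora2a in the core (r = 0.728, rho = 0.786, exact permutation p = 0.0391, adjusted 0.0689, and r = 0.854 without the 2 farthest rats). Drd2 and Adora2a correlated at Pearson's r = 0.961 in the NAc core (Spearman's rho = 0.952, n = 8, exact permutation p = 0.000521, adjusted over 30 relations 0.00391) and at r = 0.936 in the NAc shell (rho = 0.952, exact permutation p = 0.000769, adjusted 0.00446). Without the 2 rats farthest from the median of Drd2, r was 0.801 and 0.887. Drd1 and Drd2, which mark different neurons, correlated at r = 0.841 in the core (rho = 0.857, exact permutation p = 0.00880, adjusted 0.0189) and at r = 0.925 in the shell (rho = 0.905, exact permutation p = 0.00213, adjusted 0.00655), and at 0.871 and 0.893 without the 2 farthest rats. Drd3 gave negative r with each of the other 4 genes in the core, from -0.686 with Drd1 (rho = -0.571, exact permutation p = 0.0603, adjusted 0.101) to -0.249 with Adora2a (rho = -0.452, exact permutation p = 0.501, adjusted 0.579). None of the 4 passed the threshold, and they rest on 3 to 15 counts per library. Without the 2 farthest rats r was 0.379 with Drd1, 0.260 with Adora2a, 0.269 with Ppp1r1b and -0.719 with Drd2, so the sign of the first 3 rests on those rats. In the shell its r with the other 4 genes was positive, from 0.868 with Adora2a (rho = 0.810, exact permutation p = 0.00454, adjusted 0.0113) to 0.916 with Drd2 (rho = 0.929, exact permutation p = 0.000174, adjusted 0.00391). Without the 2 farthest rats these were 0.798 and 0.895. The difference between core and shell was not tested. In the VTA, r for Drd1 and Drd2 was -0.751 (rho = -0.262, exact permutation p = 0.0338, adjusted 0.0633) and -0.167 without the 2 farthest rats, so that value rests on those libraries. Drd1 and Ppp1r1b, positively related in the NAc, gave rho = -0.857 in the VTA (exact permutation p = 0.0107, adjusted 0.0247), and r = -0.625 (exact permutation p = 0.0918, adjusted 0.138), or -0.778 without the 2 farthest rats. The difference from the NAc was not tested. Rat 11 had the lowest level of Drd2, Adora2a and Ppp1r1b in the core and the lowest of all 5 genes in the shell, and in the core the direct-pathway gene Pdyn was lowest there as well, at 244.8 CPM against at most 417.5. The summed medium spiny neuron markers varied by library in the same regions (2816 to 4793 CPM in the core), and their part in these relations was not tested. Batches held at most 4 rats, too few for values within a batch.

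Some genes followed the members closely. Over the 24 libraries, the gene most like Drd1 with a known symbol was Gng7, a G protein gamma subunit of the striatum (Pearson's r of log2 CPM = 0.994), that most like Adora2a was Cpne5 (0.996), followed by the striatal G protein regulator Rgs9 (0.996), and those most like Ppp1r1b were Kcnk2, a potassium channel gene (0.995), and Rasd2 (0.992). For Drd2, with its level in the VTA, likeness was lower, with Gcnt2 (0.920) and Gipr (0.849) the closest, and for Drd3 it was Fam214a (0.876). Likeness over these libraries includes any step between NAc and VTA. Within the 16 NAc libraries, with the mean of each region taken out, the closest genes were Adcy5, the main striatal adenylyl cyclase, for Drd1 (0.922), Pdyn, the dynorphin precursor, for Drd2 (0.957), and Rasd2 for Ppp1r1b (0.962).

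The other genes of the pathway were drawn from fixed lists, of whose 147 symbols 90 could be paired with an ID. Of all 16289 genes tested, 5008 were called higher and 5064 lower in the NAc core than in the VTA, and 1283 higher and 1174 lower in the core than in the shell, so calls in both directions were common outside the lists too. Among G proteins and adenylyl cyclases, 8 were tested, of which 4 were higher and 3 lower in the NAc core than in the VTA. Gng7 was 17.1-fold higher (log2 fold change 4.10 ± 0.21) and Adcy5 4.37-fold higher (2.13 ± 0.10), whereas Adcy1 was at -0.88 ± 0.39 and not called (adjusted p = 0.0617). Between core and shell, Gnao1 (0.42 ± 0.05) and Adcy5 (0.35 ± 0.09) were higher in the core and the other 6 were not called. Of 8 cyclic nucleotide phosphodiesterases, which break down cAMP and cGMP, 6 were higher and 1 lower in the core than in the VTA, led by Pde10a (3.18 ± 0.19), Pde2a (2.37 ± 0.15) and Pde1b (2.21 ± 0.12). The median over this list was 1.69, against -0.01 over all genes tested. Between core and shell, Pde1b was higher in the core (0.41 ± 0.12), and Pde8b (-0.31 ± 0.10) and Pde1a (-0.27 ± 0.09) were lower.

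Protein kinase A phosphorylates DARPP-32. Of its 6 subunit genes 1 was higher and 5 were lower in the NAc core than in the VTA, with a median of -0.48. The exception was Prkar2b, a regulatory subunit (1.69 ± 0.07), and the catalytic subunit gene Prkacb (-1.06 ± 0.23) and the regulatory subunit gene Prkar2a (-0.93 ± 0.12) were among those lower. Prkar2b was also the only one called between core and shell, lower in the core (-0.37 ± 0.07). Of 7 phosphatases, kinases and relatives of DARPP-32, 6 were higher in the core than in the VTA and none was lower, among them Arpp21 (4.11 ± 0.11, 17.2-fold), the striatal-enriched tyrosine phosphatase gene Ptpn5 (2.36 ± 0.16) and the calcineurin subunit gene Ppp3ca (1.88 ± 0.36). Between core and shell 4 of the 7 were higher in the core and none was lower, with Arpp21 (0.65 ± 0.08), Ppp1r1a (0.46 ± 0.07) and Ppp3ca (0.60 ± 0.12) of smallest p. Of 8 receptor regulators 5 were higher and 1 lower in the core than in the VTA, and 4 higher and 2 lower in the core than in the shell; Rgs9 was 43.8-fold higher in the core than in the VTA (5.45 ± 0.19). Of 5 genes of adenosine handling 1 was higher and 2 were lower in the core than in the VTA.

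The receptor Adora1, the A1 receptor that inhibits adenylyl cyclase, was the only other dopamine or adenosine receptor gene with an ID. It was lower in the NAc core than in the VTA (-0.54 ± 0.08, adjusted p = 2.80e-05) and higher in the core than in the shell (0.26 ± 0.08, adjusted p = 0.0269), so its order of regions differed from that of Adora2a. Of 9 direct-pathway genes other than Drd1, 6 were higher and 2 lower in the core than in the VTA, led by Pdyn (4.32 ± 0.34), Isl1 (4.02 ± 0.42) and the muscarinic receptor gene Chrm4 (3.49 ± 0.12). Between core and shell, the transcription factor genes Isl1 (-0.90 ± 0.12) and Eya1 (-0.67 ± 0.20) were lower and Ebf1 (0.79 ± 0.14) was higher in the core, and in all 1 of the 9 was higher and 3 were lower there. Only 2 indirect-pathway genes other than Drd2 and Adora2a had an ID, Upb1, which was higher in the core than in the VTA (1.65 ± 0.52), and Nell1, which was lower (-0.93 ± 0.08). Nell1 was also lower in the core than in the shell (-0.61 ± 0.09). Beside these differences, 3 cholinergic neuron markers were all lower in the core than in the shell, with a summed level of 22.4 to 31.4 CPM in the core, 32.4 to 87.0 in the shell and 2.14 to 14.8 in the VTA. The summed level of 2 glutamatergic neuron markers was 1572 to 2613 CPM in the core and 526 to 1059 in the shell, nearly all of it from Nrgn (mean 1881 against 762.2 CPM, 1.30 ± 0.14, adjusted p = 1.75e-06). The other marker, Slc17a6, was at 9.10 and 8.60 CPM and not called. The summed level of 4 oligodendrocyte markers was 10190 to 15690 and 7973 to 13210 CPM, with 0 of the 4 called. Of 11 medium spiny neuron markers 7 were higher and none lower in the core than in the shell, with a median log2 fold change of 0.35. The part of cell makeup in the differences of Drd2, Adora2a and Ppp1r1b was not tested.

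**Figure D4:**
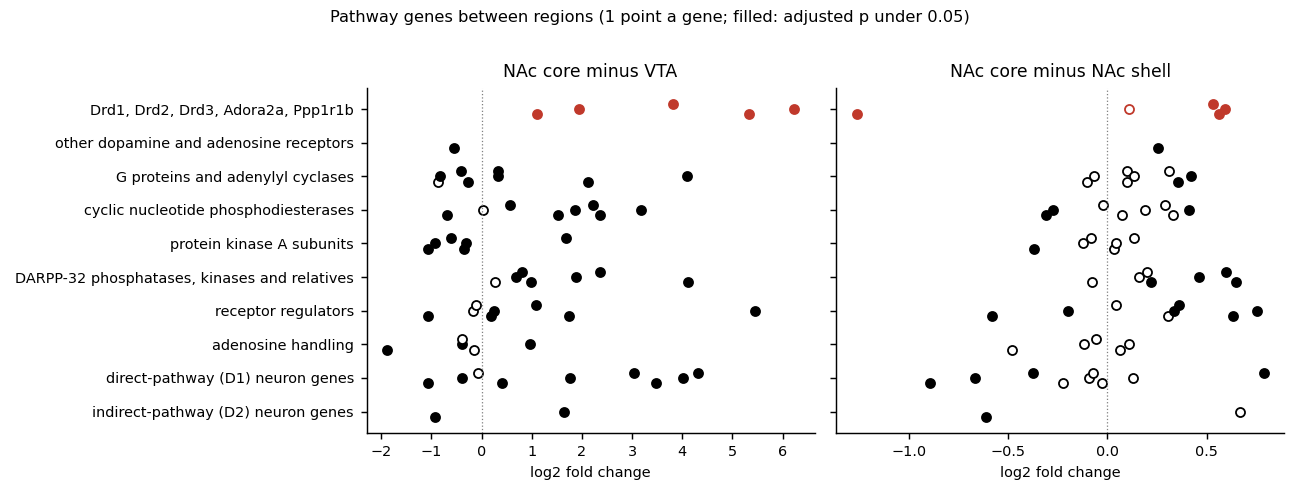
Log2 fold change of the 5 genes (red) and of the genes of each pathway list (black), 1 point a gene, for NAc core against VTA and for NAc core against NAc shell, filled where the adjusted p was under 0.05. Between core and VTA, Drd1 and Adora2a reach beyond most pathway genes, Rgs9 lies near them at 5.45, and most protein kinase A subunits lie below 0.

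The study compared the crosses within each region in search of genes tied to nicotine self-administration, a behaviour in which it took cross A and cross B to differ and which is not analysed here. None of the 5 genes was called between crosses in any region. In the NAc core, Drd1 was at 108.2 ± 19.2 CPM (SD, n = 4) in the rats of cross A and 99.9 ± 15.9 in those of cross B, Drd2 at 215.4 ± 52.9 and 204.8 ± 21.5, Adora2a at 346.6 ± 95.4 and 331.8 ± 21.9, and Ppp1r1b at 1785 ± 429 and 1747 ± 101. The groups overlapped for each gene, and cross A, which held rats 11 and 15, had the larger SD for each. In the NAc shell, Drd1 was at 93.7 ± 17.3 and 98.9 ± 16.4 CPM, Drd2 at 142.9 ± 34.0 and 140.3 ± 24.8, Adora2a at 226.0 ± 46.5 and 241.4 ± 40.5, and Ppp1r1b at 1153 ± 229 and 1184 ± 224. The log2 fold changes of these 4 genes lay between -0.11 and 0.12 in the NAc regions, with 95% intervals that reached at most -0.43 to 0.42. Over the alternatives they ran more widely, from -0.18 to 0.27 (both Adora2a) in the core. In the shell they ran from -0.30 (Drd1) to 0.21 (Drd2), and none was called. In the core, the unadjusted p was below 0.05 in 2 of 17 alternatives for Drd2 and Adora2a and in 1 for Ppp1r1b. In the shell it was so in 1 for Drd1. For Drd3, which rests on few counts, they were -0.83 ± 0.55 in the core (adjusted p = 0.672) and 0.10 ± 0.56 in the shell.

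In the VTA, the largest cross difference among the well detected members was that of Drd2, at 78.7 ± 47.2 CPM for cross A and 118.7 ± 18.3 for cross B. Its log2 fold change was -0.58 ± 0.48 (95% interval -1.67 to 0.51, adjusted p = 0.847), and without the library of rat 2 it was -0.24 ± 0.19 (adjusted p = 0.709). Adora2a was at 8.70 ± 1.83 and 8.33 ± 0.48 CPM, and Ppp1r1b at 135.1 ± 51.5 and 117.8 ± 16.6. The Ppp1r1b difference was 0.20 ± 0.24 over all libraries (adjusted p = 0.894). Without rat 1, whose VTA library held the highest level, it was -0.08 ± 0.17 (adjusted p = 0.914), so its direction rests on that library. Of all 16289 genes, the edgeR test called 0.0184%, 0.00614% and 0.0% between crosses in the NAc core, NAc shell and VTA. It gave 1524, 652 and 929 genes an unadjusted p below 0.05, none of them a member, and DESeq2 called 65, 5 and 6 genes at an adjusted p under 0.05 and again none of the members. Nicotine-injected rats of cross A and of cross B had been prepared in different batches (rats 1 and 2 in batch E, except the VTA library of rat 2, and rats 3 and 4 in batch F), while the saline-injected rats shared batch G except for the VTA library of rat 16. With batch as a term, the cross differences of Drd1, Drd2, Adora2a and Ppp1r1b were -0.03, -0.13, -0.18 and -0.09 in the NAc core and 0.15, 0.20, 0.01 and 0.06 in the NAc shell, and none was called. In the NAc, batches E and F each held rats of a single cross. These values therefore rest on the saline-injected rats of batch G alone and are not differences over all 8 rats.

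None of the 5 genes was called between nicotine and saline injections either. In the NAc shell all 5 had a positive log2 fold change, from 0.13 to 0.33, of which Ppp1r1b was at 1270 ± 185 CPM (SD, n = 4) after nicotine and 1067 ± 205 after saline (0.25 ± 0.13, 95% interval -0.04 to 0.55, adjusted p = 0.999), with overlapping groups. These values depended on single saline-injected rats. Without rat 15, Drd1, Drd2, Drd3, Adora2a and Ppp1r1b were at 0.28, 0.39, 1.11, 0.31 and 0.39, with unadjusted edgeR p of 0.0307, 0.00779, 0.0486, 0.0390 and 0.00777 and none called, and without rat 11 Drd3 was at -0.01 and Ppp1r1b at 0.15. Drd2 was at 151.5 ± 19.7 and 131.7 ± 33.5 CPM there. In the NAc core, Drd1 was at 98.3 ± 16.1 CPM after nicotine and 109.8 ± 17.9 after saline (-0.16 ± 0.13, adjusted p = 0.837), and Drd2 at 208.2 ± 25.8 and 211.9 ± 51.7. In the VTA, Drd2 was at 79.7 ± 45.2 and 117.7 ± 25.0 CPM (-0.58 ± 0.48), and at -0.24 ± 0.19 without the library of rat 2. The edgeR test called 0.0% of all genes for injection in each region, with 1041 core genes, 481 shell genes and 331 VTA genes below an unadjusted p of 0.05, while DESeq2 called 3, 4 and 4 genes; no member was among any of these. Batch and injection cannot be told apart, since no nicotine-injected rat shared a batch with a saline-injected one except in the VTA, where rats 2 and 16 shared batch L.

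**Figure D5:**
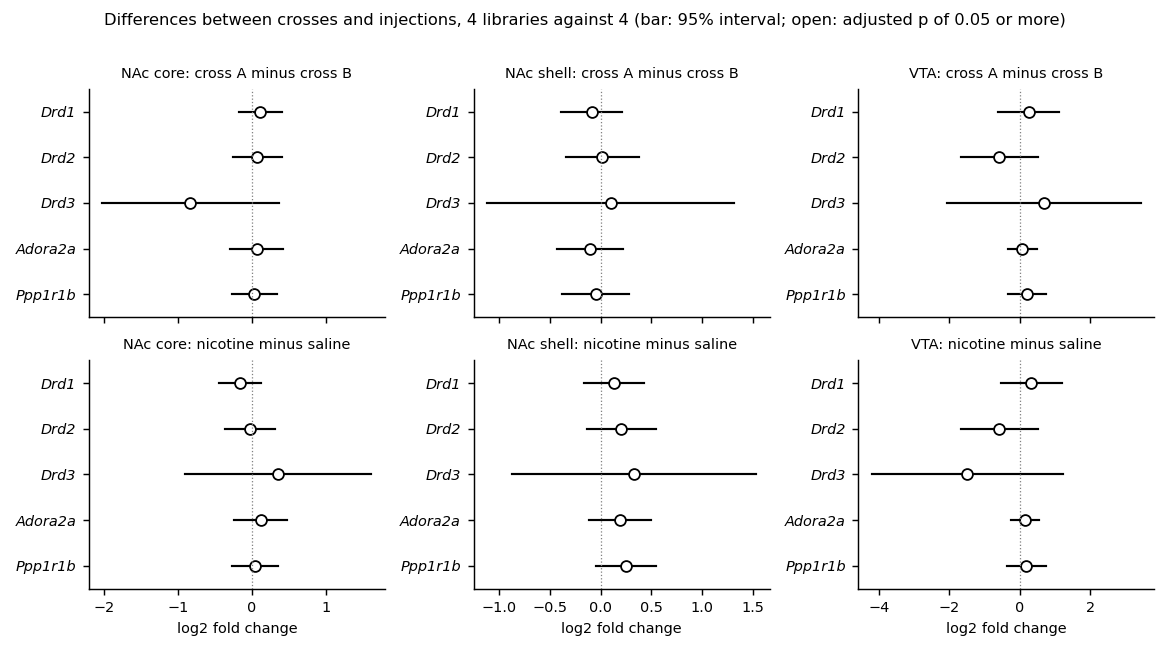
Log2 fold change of each gene between crosses (upper panels) and between injections (lower panels) in each region, 4 libraries against 4, with 95% intervals as bars. All points are open, no adjusted p being under 0.05, and every interval includes 0; those of Drd3 are the widest.

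The cross difference was also compared between injections and between regions. With 2 libraries per cross and injection, the interaction called none of the 5 genes, where it called 0.00614%, 0.35% and 0.0% of all genes in the NAc core, NAc shell and VTA. It gave 959, 1208 and 878 genes an unadjusted p below 0.05, and DESeq2 called 17, 225 and 78 genes, none of these a member. In the NAc core, Drd2 was at 235.1 and 222.0 CPM in the nicotine-injected rats of cross A, at 140.5 and 264.0 in its saline-injected rats, at 199.1 and 176.7 in the nicotine-injected rats of cross B and at 220.2 and 223.0 in its saline-injected rats. Rats 11 and 15, the saline-injected rats of cross A, thus held the lowest and the highest level of the 8. The interaction was 0.41 ± 0.31 (adjusted p = 0.871), and Adora2a gave 0.46 ± 0.32 (adjusted p = 0.866). Without rat 15, which left rat 11 alone in its group, the interaction was 0.93 for Drd2 and 1.01 for Adora2a. In the VTA without rat 1, which left the library of rat 2 alone in its group, the interaction of Drd2 was -2.50. For the 5 genes, the interaction of cross and region was not called in any pair of regions, with 0.0% of all genes called in each and log2 differences of -1.52 for Drd3 to 0.65 for Drd2, both between NAc core and VTA. Without the VTA library of rat 2 these were -1.86 ± 1.16 (adjusted p = 0.591) and 0.32 ± 0.27 (adjusted p = 0.714). At an unadjusted p below 0.05 there were 357 genes for core and shell, 1490 for core and VTA and 951 for shell and VTA, and DESeq2 called 2, 20 and 5 genes, again without a member.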

How the data were processed

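RNA-seq libraries of 24 hand-dissected samples were grouped by the labels for region, cross, injection and preparation batch, and rats were numbered by the sample titles. The authors' methods state that reads were trimmed using fastp 0.20.0, quantified with salmon 0.12.0 on the rat genome Rnor version 6 and summed transcripts to genes with tximport. Deposited values were estimated counts for each gene, already whole numbers and not normalized, for 17323 Ensembl IDs; they were used as they stand, with 17563458 to 24405856 counts per library. Salmon assigns ambiguous reads by estimation, so near-identical genes may share counts.

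A gene was tested if 3 or more of the 24 libraries had a normalized count over 10 (16289 kept, 1034 left out). Tests were two-sided and used the quasi-likelihood method of edgeR 4.0.16 in R 4.3.3, with TMM scaling and Benjamini-Hochberg adjustment over all tested genes, threshold 0.05, fitted to the libraries compared with region, cross or injection as the only term. SE were obtained from each log2 fold change and F value. Ratios and relations between members used levels per library, the relations as log2 CPM with a prior count of 2. The fits were tested on simulated data. Alternative fits used DESeq2 1.42.0, size factors by median ratio, other filters, batch, cross or injection as a term, 1 fit over all libraries, subsets of rats, the rat as a block, and each rat left out.

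The same rat gave a library in each region, so rats pair the regions. The correlation of deviations from the group means of 1 rat's libraries was -0.11 to 0.12 between NAc core and NAc shell, -0.01 to 0.18 between NAc core and VTA and -0.07 to 0.13 between NAc shell and VTA. Over 36 pairs of libraries within groups, the ratio of chi-square to degrees of freedom was 5.16 to 127, so none was a copy of another.

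The table holds IDs alone. Symbols came from lists in the study's supplement that pair them with IDs (7462 IDs, names only); for crosses and injections, only pairs from the lists of another experiment (5954 IDs) were used, since the other lists were chosen on these libraries. A symbol with several IDs was not used. Gng7, Adcy5, Pde10a and Rgs9 are in a pathway list and also in the medium spiny neuron marker list. Genes named were the 5 members, up to 3 per pathway list with the largest change between NAc core and VTA or the smallest p among those called between core and shell, and the 3 closest to each member, of which those with a symbol are named in part. Rgs9 is named by its likeness to Adora2a; Slc6a3, Ttr, and Pdyn in rat 11 were chosen after their values were seen. The members and lists were chosen with earlier results of these data known. Promoters of 3 members were matched in RefSeq; the window of Drd1 began inside the gene's recorded span and was not printed.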

Additional observations from a re-analysis of the deposited data

Results flagged for a closer look

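In 45 groups of 4 to 8 libraries (each of the 5 genes in each region, over all 8 libraries and within each cross), 3 held a library whose gap to the nearest other exceeded Dixon's 95% critical value, where about 1 in 20 groups, or 2.25 of 45, is flagged by chance. Drd2 in the VTA was at 16.2 CPM in the library of rat 2 (cross A), the nearest of the other 7 being at 83.5 and the highest at 141.5; Slc6a3 was at 20.9 CPM in the same library against 702.5 to 1312 in the others. Ppp1r1b in the VTA was at 208 CPM in the library of rat 1 (cross A), the nearest being at 129.7 and the lowest at 87.2. Within cross B, Ppp1r1b in the VTA was at 93.1 CPM in the library of rat 3, against 123.7 to 127.7 in the other 3.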

How the results depend on the processing

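Between NAc core and VTA and between NAc shell and VTA, the counts of 5 and 4 members called stayed within 1.5 times their value under every alternative run. Between NAc core and NAc shell, 4 members were called, but 2 in 1 fit over all 24 libraries (Adora2a and Ppp1r1b, not Drd2 or Drd3). In the rats of cross A alone 0 were called and in the saline-injected rats alone 1 (Ppp1r1b), both subsets that hold fewer libraries. Of all 16289 genes tested, 2457 were called in the main fit and 1329 in the fit over all 24 libraries. In cross A alone 717 were called, and in the saline-injected rats alone 486, so calls fell over all genes too. In the rats of cross A alone Drd2, Adora2a and Ppp1r1b were at 0.58, 0.61 and 0.62 on the log2 scale (adjusted p = 0.128, 0.122 and 0.0787). Drd3 between core and shell was called in 9 of 19 alternatives, with values from -1.80 to -0.85, and between core and VTA in 18 of 20. The rat as a replicate block made it -1.15 (adjusted p = 0.0768) and changed no other call of a member; without the VTA library of rat 2, with the block, a fit chosen after seeing the data, Drd2 between NAc shell and VTA was at 0.37 (adjusted p = 0.0958). For cross and injection, 0 members were called under every alternative. For the interaction of cross and injection, leaving out any rat left another alone in its group, so only effect sizes are given. Over the alternatives, the interaction in the NAc core ran from 0.01 to 0.93 for Drd2 and from 0.05 to 1.01 for Adora2a. In the VTA that of Drd2 ran from -2.50 to -0.14. The cause was not tested. No called value changed sign, while 42 of 258 values for cross and 8 of 213 for injection did among those not called. Replicates measure the spread between these rats, and depth limits Drd3, at most 38 counts in a library, and Drd1 in the VTA.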
